A study of Homo sapiens with 6 samples.

Results

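Glycosaminoglycan degradation enzymes were examined in HCT116, a human colorectal cancer cell line with microsatellite instability. They are 9 genes, IDS, IDUA, SGSH, GALNS, ARSB, HGSNAT, NAGLU, GUSB and HPSE, and every probe set whose RefSeq transcript belongs to one of them was taken. This gave 11 probe sets for 8 genes, of 1259 probe sets and 927 named genes on the array. HGSNAT had no probe set under this rule and is not analysed here. IDS had 2 probe sets, ARSB 3, and each of the other 6 genes 1.

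The 6 samples were all HCT116 cells in which, by the titles, wild-type ACVR2 (an activin receptor) could be induced with doxycycline, and all 6 received activin A. The source labels name TGFBR2, ACVR2 and AIM2 together, so the inducible gene rests on the titles. There were 3 arrays with doxycycline (+DOX) and 3 without (-DOX). The comparison asks which glycan genes differ when the receptor is switched on, but no sample had doxycycline without the inducible gene and none lacked activin A. The drug and the receptor therefore cannot be told apart. The labels give no dose, no time, no clone and no statement that replicates were separate cultures, so a p-value here covers only how far these arrays scatter, which could be technical scatter.

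The glycosaminoglycans considered for these members are long sulphated sugar chains of proteoglycans: heparan, chondroitin, dermatan and keratan sulphate. Heparanase first cuts heparan sulphate into shorter pieces, and lysosomal enzymes then strip each chain from one end, a sulphatase and a glycosidase in turn, each step needing the one before it. Inherited loss of most of these enzymes leaves the chains undegraded and causes the mucopolysaccharidoses. Many lysosomal genes are known to carry an element with the core CACGTG near their start, which the transcription factor TFEB binds.

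None (0) of the 11 probe sets passed the threshold, an adjusted p of 0.05, between +DOX and -DOX arrays, and 0% of all 1259 did. IDS, which begins the removal of sulphated iduronic acid, read higher with doxycycline on its brighter probe set, by 0.41 log2 units (95% confidence interval 0.11 to 0.71; limma, adjusted p = 0.477). IDUA, which takes off the iduronic acid itself, was at -0.22 (-0.48 to 0.05; limma, adjusted p = 0.682). The heparanase gene HPSE was at 0.15 (-0.0089 to 0.30; limma, adjusted p = 0.669). The other 5 genes lay between -0.14 and 0.04 on their brighter probe sets. The members thus gave 5 higher and 6 lower probe sets, with a median difference of -0.0053. In RNA from whole cultures, fewer cells expressing a gene and less RNA per cell cannot be told apart.

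The start regions of IDS and HPSE, the genes with the most positive differences, and of GALNS, the only member with a pair of CACGTG copies, are printed here from RefSeq (GRCh38.p14). Each window runs from 250 bases before to 50 after a transcript start, 300 bases, 5′ to 3′ on the gene's strand, which is the minus strand for all 3, with CACGTG in capitals. Where a gene had several windows, the one with the most CACGTG copies was printed, and among equals the one with the lowest coordinate. The printed windows were thus chosen by the motif and need not be the main start of the gene. The windows are chrX:149505257-149505556 for IDS, chr4:83335104-83335403 for HPSE and chr16:88856898-88857197 for GALNS.
IDS: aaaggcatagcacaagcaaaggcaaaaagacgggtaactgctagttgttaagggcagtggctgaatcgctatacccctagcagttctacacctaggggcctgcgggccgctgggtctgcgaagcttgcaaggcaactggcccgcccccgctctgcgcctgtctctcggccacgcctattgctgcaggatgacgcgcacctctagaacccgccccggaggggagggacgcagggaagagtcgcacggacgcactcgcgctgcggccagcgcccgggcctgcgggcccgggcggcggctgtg
HPSE: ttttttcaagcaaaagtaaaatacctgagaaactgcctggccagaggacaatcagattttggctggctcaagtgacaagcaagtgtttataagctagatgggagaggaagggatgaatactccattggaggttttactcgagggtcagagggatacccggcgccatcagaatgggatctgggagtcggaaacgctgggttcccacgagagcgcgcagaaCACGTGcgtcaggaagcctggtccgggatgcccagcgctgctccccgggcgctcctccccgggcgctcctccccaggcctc
GALNS: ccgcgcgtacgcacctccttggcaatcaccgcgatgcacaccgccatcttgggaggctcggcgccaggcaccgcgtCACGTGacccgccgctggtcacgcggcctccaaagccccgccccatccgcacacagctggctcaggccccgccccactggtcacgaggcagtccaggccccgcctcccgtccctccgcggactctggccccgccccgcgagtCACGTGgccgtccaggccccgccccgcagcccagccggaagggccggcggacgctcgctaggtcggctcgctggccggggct
The IDS window held no CACGTG. In the printed HPSE window the motif began 31 bases before the start, and in the printed GALNS window it began 174 and 32 bases before the start.

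Start regions were found for 6 of the 9 genes, IDS, IDUA, HPSE, ARSB, GUSB and GALNS, some with several starts, 10 windows in all. CACGTG, which reads the same on both strands, was present in 3 windows, 1 each of ARSB, GALNS and HPSE. Over all 35116 windows of 300 bases in the table, 7.26% held it. Windows with 2 or more copies, as in GALNS, made up 0.664% of all. Of the 3 genes with a CACGTG, HPSE was at 0.15, GALNS at -0.14 and the ARSB probe sets at -0.08, -0.0053 and 0.07. The 95% interval of each included 0, so their directions are not settled. Any link between the motif and these differences was not tested. A match describes these letters only and is not a site shown to be used.

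The deposited values are log2 expression after RMA, with array medians between 7.61 and 7.65 and lower quartiles between 6.85 and 6.89. The -DOX replicate 3 stood apart, correlating with the other 5 arrays at 0.982 to 0.991 over all probe sets, against 0.995 to 0.999 among those 5. ACVR2A, the gene meant to be induced, read 8.15, 8.02 and 8.08 on +DOX replicates 1, 2 and 3 and 8.25, 8.07 and 8.70 on -DOX replicates 1, 2 and 3. TGFBR2 read 9.37, 9.21 and 9.38 with and 9.76, 9.21 and 10.04 without, and AIM2 had no probe set by this naming. Neither measured gene was higher with doxycycline on its brightest probe set, so these arrays do not show that the receptor was induced. Probes outside the introduced sequence would not register the transgene, and where these probes lie is not known here. Of 8 colon epithelium markers 2 had a probe set: MUC1 read 8.62 to 8.89 on its brightest probe set and MUC2 7.23 to 7.34. Of 13 markers of other cells 5 were measured (PECAM1, PDGFRB, LUM, DCN and NCAM1), each between 5.96 and 7.17. This array covers too few defining markers to check the cell type.

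**Figure D1:**
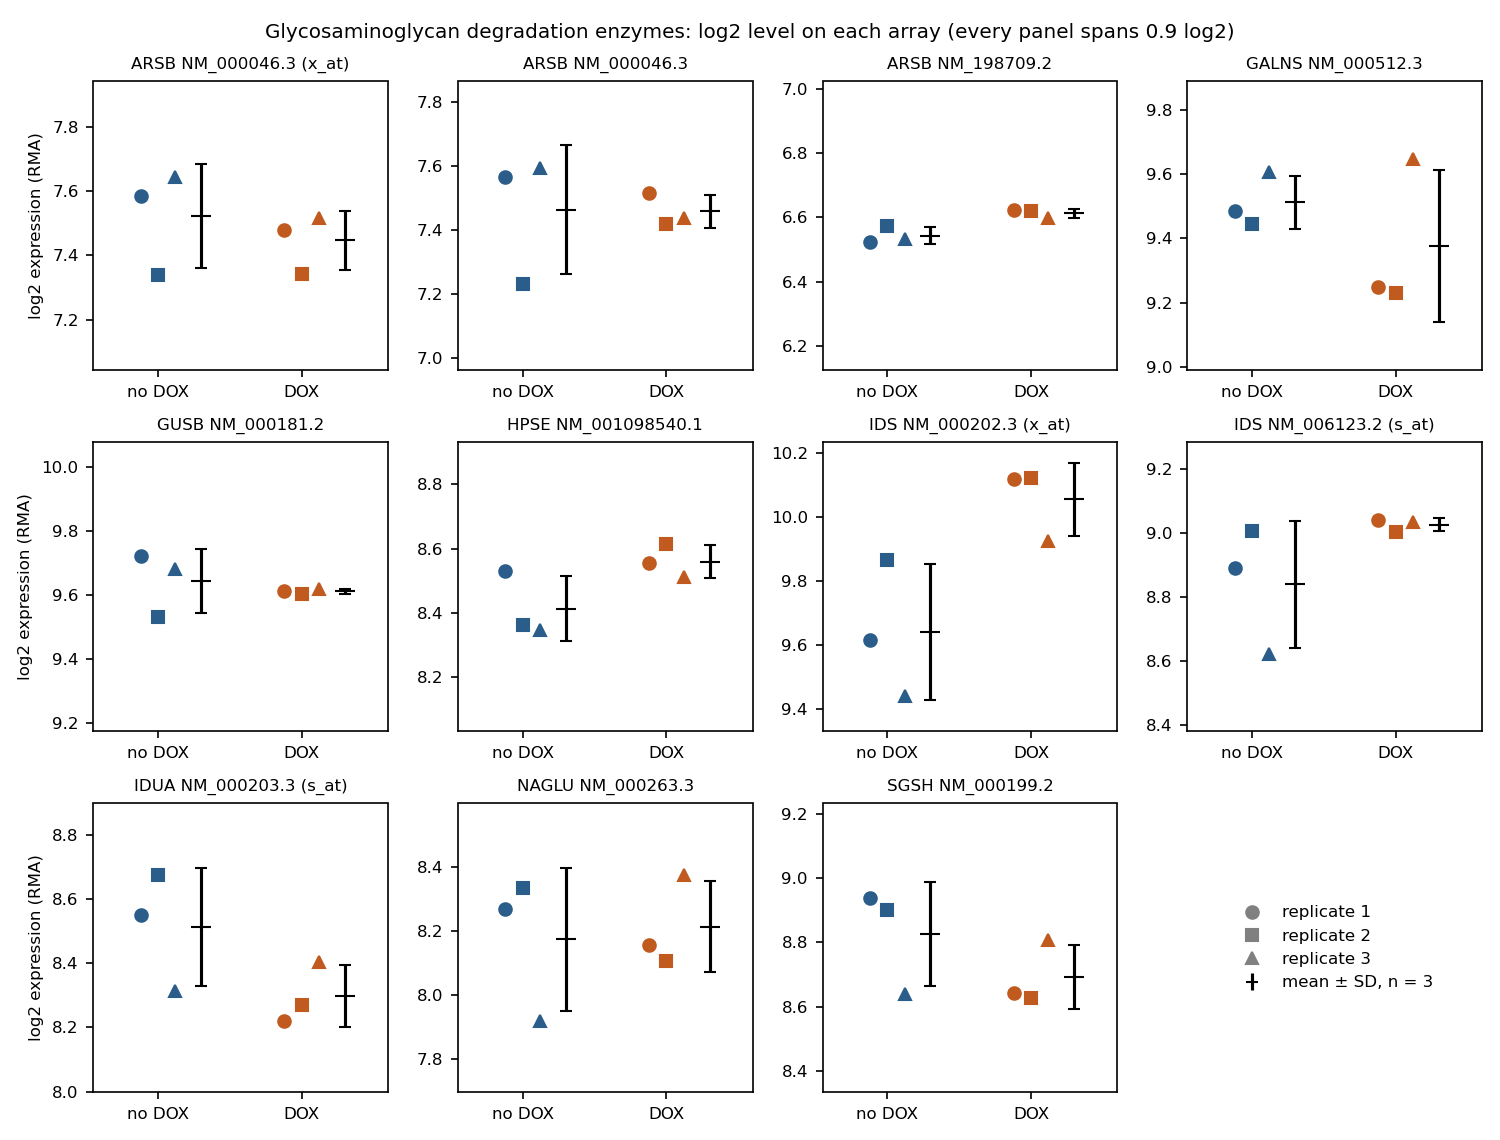
Log2 expression (vertical axis, 0.9 log2 units per panel) of the 11 member probe sets on each array, without (blue) and with (orange) doxycycline; symbols mark replicates and bars the mean ± SD of 3 arrays. All 3 orange points lie above the blue ones for IDS NM_000202.3 and for the dim ARSB NM_198709.2, and the groups overlap in the other 9 panels.

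Iduronate-2-sulphatase, the product of IDS, removes a sulphate from iduronic acid in heparan and dermatan sulphate. Its brighter probe set, for transcript NM_000202.3, read 10.12, 10.12 and 9.92 on +DOX replicates 1, 2 and 3, and 9.62, 9.86 and 9.44 on -DOX replicates 1, 2 and 3. The groups did not overlap, although the lowest +DOX array lay only just above the highest -DOX array. Group means were 10.05 ± 0.11 with and 9.64 ± 0.21 without doxycycline (SD, n = 3 each), a 1.33-fold difference with a 95% interval of 1.08 to 1.64. The exact two-sided permutation p was 0.1, the smallest that 3 arrays against 3 can give. By size the difference ranked 58 of 1259 probe sets.

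A further IDS probe set, named for the shorter form NM_006123.2, read 9.04, 9.00 and 9.03 with doxycycline and 8.89, 9.01 and 8.62 without. Its name ends in s_at, which marks probes shared between transcripts, so it may not read that form alone. Here the +DOX arrays lay close together, and -DOX replicate 2 fell among them. The difference was 0.19 (SE 0.10; limma, adjusted p = 0.692). The brighter minus the dimmer IDS value was 1.08, 1.12 and 0.89 on +DOX replicates 1, 2 and 3 and 0.73, 0.86 and 0.82 on the -DOX ones, so the probe sets did not move by equal amounts. This within-array quantity was not tested. Without -DOX replicate 3 the IDS differences were 0.31 and 0.08 (limma, adjusted p = 0.398 and 0.691). The name of the brighter probe set ends in x_at, which Affymetrix uses where probes resemble other sequences, and RefSeq lists a pseudogene copy, IDSP1, so what else it registers is uncertain.

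IDUA encodes alpha-L-iduronidase, which releases the iduronic acid once IDS has removed its sulphate. It read 8.22, 8.27 and 8.40 on +DOX replicates 1, 2 and 3, and 8.55, 8.68 and 8.31 on -DOX replicates 1, 2 and 3. The -DOX replicates 1 and 2 lay above every +DOX array, and -DOX replicate 3 fell inside the +DOX range. The difference was -0.22 (SE 0.11; limma, adjusted p = 0.682), opposite in sign to that of IDS. Without -DOX replicate 3 it was -0.32, and without -DOX replicate 2 it was -0.13 (limma, adjusted p = 0.245 and 0.487). The probe set ends in s_at, which marks probes shared between transcripts.

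SGSH and NAGLU act on the glucosamine units of heparan sulphate, SGSH removing the sulphate on the nitrogen and NAGLU, after an acetylation by the HGSNAT product, the resulting N-acetylglucosamine. SGSH read 8.64, 8.63 and 8.81 with doxycycline and 8.94, 8.90 and 8.64 without, for replicates 1, 2 and 3. The pattern resembled that of IDUA: -DOX replicates 1 and 2 were highest and -DOX replicate 3 lay among the +DOX arrays. The SGSH difference was -0.13 (SE 0.10; limma, adjusted p = 0.721), but -0.23 without -DOX replicate 3 and -0.08 without -DOX replicate 1 (limma, adjusted p = 0.368 and 0.824). NAGLU read 8.16, 8.11 and 8.37 with and 8.27, 8.34 and 7.92 without doxycycline. Both its groups were wide, with the highest value on +DOX replicate 3 and the lowest on -DOX replicate 3. Its difference of 0.04 (SE 0.13; limma, adjusted p = 0.945) turned to -0.09 without -DOX replicate 3, to -0.04 without +DOX replicate 3 and to -0.06 with array weights.

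GUSB, the beta-glucuronidase that removes glucuronic acid from several glycosaminoglycans, read 9.61, 9.60 and 9.62 with doxycycline and 9.72, 9.53 and 9.68 without, for replicates 1, 2 and 3. The +DOX arrays lay inside the -DOX range. The difference was -0.03 (95% interval -0.17 to 0.11; limma, adjusted p = 0.856), and it was 0.0054 without -DOX replicate 1 and -0.09 without -DOX replicate 2. GUSB has several pseudogenes in RefSeq, so cross-hybridisation is uncertain here too. HPSE, which encodes heparanase, read 8.55, 8.61 and 8.51 with and 8.53, 8.36 and 8.35 without doxycycline. Only -DOX replicate 1 reached into the +DOX range, by passing its lowest array. The difference of 0.15 (SE 0.06) had an exact two-sided permutation p of 0.2, and without -DOX replicate 1 it was 0.20 (limma, adjusted p = 0.623); with array weights it was 0.07.

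**Figure D2:**
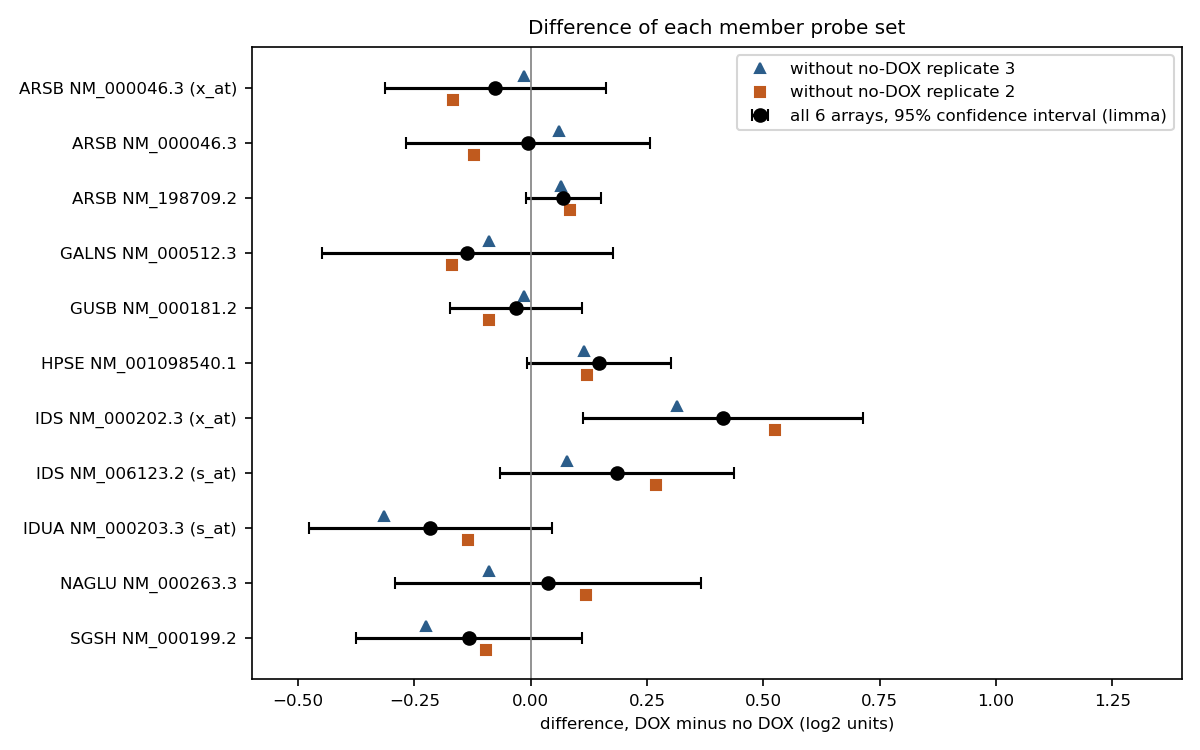
Difference in log2 expression, +DOX minus -DOX (horizontal axis), for each member probe set: black points with 95% confidence intervals from limma use all 6 arrays, triangles leave out -DOX replicate 3 and squares -DOX replicate 2. The interval leaves out 0 for IDS NM_000202.3 alone (0.11 to 0.71, unadjusted for 1259 probe sets), and the triangles of NAGLU and of ARSB NM_000046.3 (the probe set not ending in x_at) lie on the other side of 0 from their points.

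GALNS and ARSB are sulphatases, GALNS acting on chondroitin and keratan sulphate and ARSB on dermatan and chondroitin sulphate. GALNS read 9.25, 9.23 and 9.65 on +DOX replicates 1, 2 and 3 and 9.48, 9.45 and 9.61 on the -DOX ones. It was the only member more variable with doxycycline than without (SD 0.24 against 0.08): +DOX replicate 3 was the highest of all arrays and the other +DOX arrays the lowest. The difference was -0.14 (SE 0.13; limma, adjusted p = 0.730). It was -0.27 without +DOX replicate 3, -0.07 without +DOX replicate 1 and -0.06 without +DOX replicate 2.

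Of the 3 ARSB probe sets, both for NM_000046.3 gave overlapping groups. One read 7.52, 7.42 and 7.44 with and 7.56, 7.23 and 7.59 without doxycycline, a difference of -0.0053 (SE 0.11; limma, adjusted p = 0.992). Its x_at companion read 7.48, 7.34 and 7.52 with and 7.59, 7.34 and 7.64 without, a difference of -0.08 (SE 0.10; limma, adjusted p = 0.779). On both, -DOX replicate 2 was the lowest array and -DOX replicate 3 the highest. Without -DOX replicate 2 these differences were -0.12 and -0.17, and without -DOX replicate 3 they were 0.06 and -0.02. The probe set for NM_198709.2 read 6.62, 6.62 and 6.60 with and 6.52, 6.57 and 6.53 without doxycycline. These groups did not overlap, but the difference was only 0.07 (SE 0.03; limma, adjusted p = 0.675), and all 6 values were under the lower quartile of every array, where the share of background is unknown.

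The members' counts were set beside those of the whole array. At an unadjusted p under 0.05 (limma), 1 member was higher, the brighter IDS probe set, against 3.26% of all probe sets, and 0 were lower, against 4.53%. The groups did not overlap for 2 members, both higher with doxycycline, against 7.55% of all probe sets in that direction, and for 0 in the other direction, against 8.26%. All probe sets had a median difference of -0.0081, and 45.4% of them were higher, beside 5 of 11 members. Over all probe sets the unadjusted split of 41 higher and 57 lower became 63 and 44 when array medians were subtracted, and 61 and 51 after a further quantile normalization. With medians subtracted 3 members were higher at that level and 0 lower: HPSE at 0.17, the brighter IDS probe set at 0.43 and the dim ARSB probe set at 0.09. After the further quantile normalization 2 were higher, HPSE at 0.18 and IDS at 0.46.

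**Figure D3:**
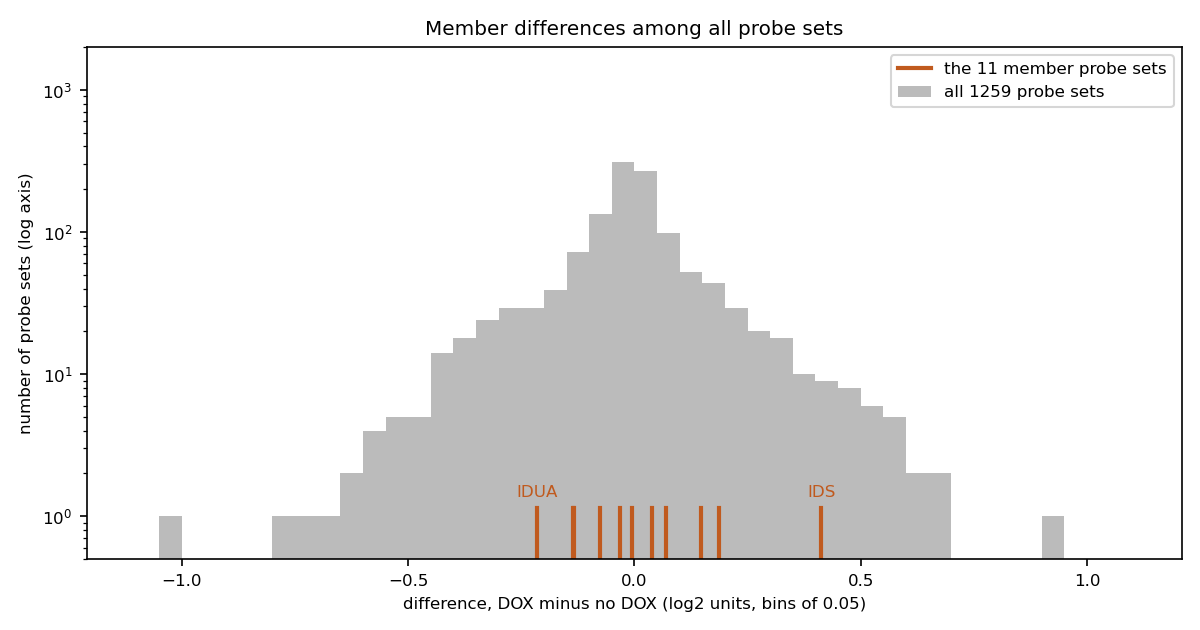
Histogram of the difference +DOX minus -DOX (horizontal axis, log2 units) over all 1259 probe sets (grey, counts on a log axis), with the 11 members marked in orange at the base. The members run from -0.22 (IDUA) to 0.41 (IDS), inside the full range of -1.03 to 0.94.

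By role, the 4 sulphatase genes gave 1 higher (IDS) and 3 lower values (SGSH, GALNS and ARSB), with a median of -0.10 on the brightest probe set of each. ARSB counts here by its x_at probe set at -0.08, and its other probe sets were at -0.0053 and 0.07. The 4 glycosidase genes gave 2 higher (HPSE, NAGLU) and 2 lower (IDUA, GUSB). The 6 genes of heparan sulphate breakdown, IDS, IDUA, SGSH, NAGLU, GUSB and HPSE, split into 3 higher and 3 lower, with a median of 0.0027.

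The members scattered more between arrays without doxycycline than with it. The SD was larger without doxycycline for 10 of 11 member probe sets (90.9%), as for 77.1% of all probe sets, and the median SD of the members was 0.16 without and 0.09 with doxycycline, beside 0.0902 and 0.0457 over all probe sets. The -DOX replicate 3 held the lowest value of 4 members (both IDS probe sets, HPSE and NAGLU) and the highest of 2 (the ARSB probe sets for NM_000046.3). The members deviated from their own means by 0.17 log2 units on average on that array and by 0.07 to 0.12 on the others; over all probe sets these deviations were 0.19 and 0.07 to 0.10. With that array left out, the median of the members was -0.01, with 5 higher and 6 lower, and 2 members were then lower at an unadjusted p under 0.05 (limma), IDUA and SGSH, and 1 higher, the brighter IDS probe set. Over all 1259 probe sets 71 were lower and 54 higher in that setting.

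**Figure D4:**
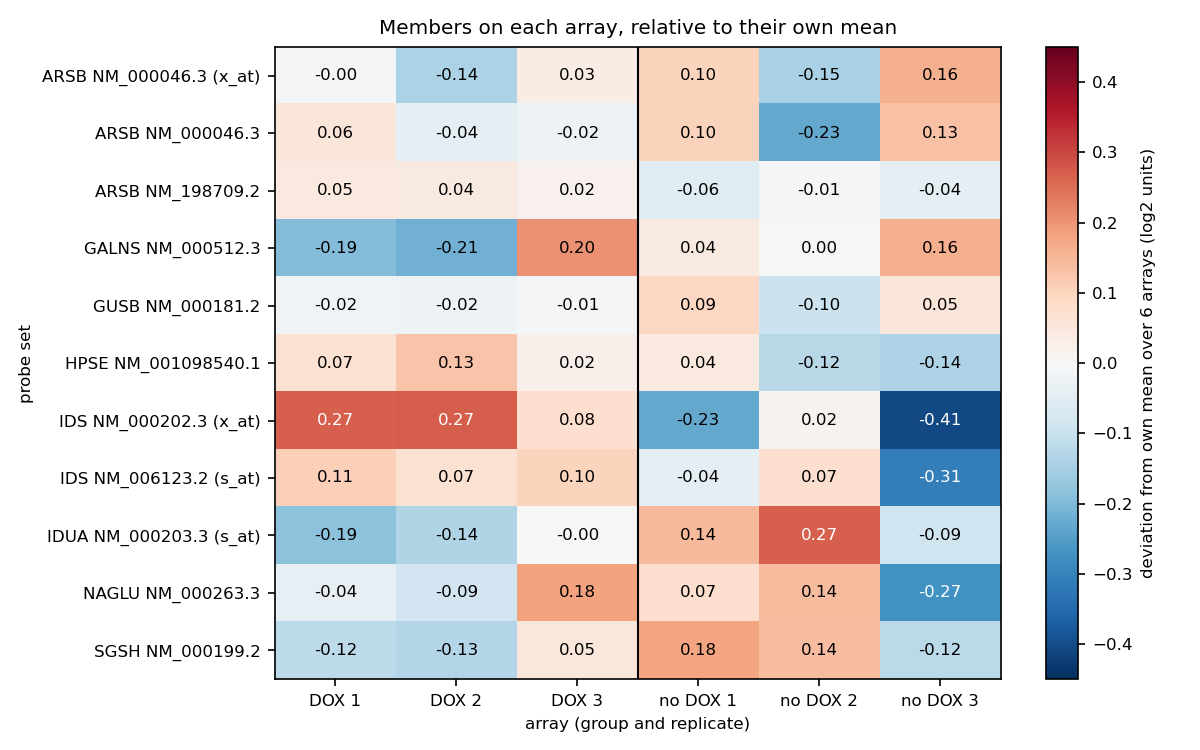
Deviation of each member probe set (rows) on each array (columns) from its own mean over the 6 arrays, in log2 units, red above and blue below. The strongest deviations are the IDS values on -DOX replicate 3 (-0.41 and -0.31), while IDUA is highest on -DOX replicate 2 (0.27).

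The probe sets of other genes nearest to the brighter IDS probe set over the 6 arrays, by the root mean square distance between profiles centred on their own means, were those of HES1 (0.0955 log2 units), BPHL (0.0982) and NEU1 (0.104), against a median of 0.26 over all probe sets and 0.14 for the further IDS probe set. HES1 encodes a repressor downstream of Notch, BPHL a hydrolase and NEU1 the lysosomal sialidase. All 3 were likewise lowest on -DOX replicate 3, at 9.18, 8.84 and 9.05. They were chosen as the nearest, so their small distances and this shared low follow from the choice.

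Other enzymes and helpers of glycosaminoglycan breakdown showed no change past the threshold either. Of 17 listed genes 11 were measured, 6 higher and 5 lower with doxycycline, none of them past the threshold (0 of 11 by limma, and 0 at an unadjusted p under 0.05), and their median was 0.03. Leaving out -DOX replicate 3 gave 4 higher and 7 lower and turned the median to -0.01. The hyaluronidase-family genes HYAL3 and HYAL4 were at 0.13 and -0.05 (limma, adjusted p = 0.692 and 0.726), the latter without overlap between groups. For HYAL4 the highest +DOX value, 7.1386, lay only just under the lowest -DOX value, 7.1424. ARSA, a sulphatase of sulphated glycolipids, was at -0.09. Of 5 genes that tag lysosomal enzymes with mannose 6-phosphate or bind the tag, only IGF2R was measured. This receptor, which carries such enzymes to lysosomes, was at -0.33 (SE 0.07; limma, adjusted p = 0.474), with no overlap between groups. Of all probe sets, 8.26% were lower with doxycycline without overlap, as HYAL4 and IGF2R were.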

How the data were processed

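RNA was extracted with Trizol and labelled as biotinylated cRNA for Affymetrix-type arrays, per the labels' protocols. The deposited table holds log2 values made by the authors with RMA (background correction, quantile normalization and a summary per probe set), per the submitters' processing notes; its version, any later step and a genome build are not given in the sources used here. Each probe set took its gene from the RefSeq accession in its identifier, without version, and a RefSeq gene table (GRCh38.p14): 1043 of 1259 (82.8%) matched 1 symbol. Start regions came from a RefSeq table of that assembly.

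All 1259 probe sets entered one limma fit (limma 3.58.1, R 4.3.3, default eBayes, two-sided, Benjamini-Hochberg over 1259, threshold 0.05), with no block and no filter. SE, 95% intervals and p-values come from it, and differences are +DOX minus -DOX in log2 units. The fit was tested on simulated data. Single probe sets also had an exact two-sided permutation test. Few arrays limit the precision.

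The members, lists and tests were chosen with earlier results of these data known. Named are all members, up to 4 genes with the smallest p of each related list, ACVR2A and TGFBR2 as a check of the labels, and the 3 probe sets nearest to IDS. A gene with several probe sets is counted by its brightest. A further gene of a related list is not reported here.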

Additional observations from a re-analysis of the deposited data

How the results depend on the processing

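Of 142 member differences recomputed under 13 alternatives, 132 kept their direction and none (0) passed an adjusted p of 0.05. The other 10 turned sign, all of ARSB, NAGLU or GUSB. A replicate block, a variance trend, a robust variance fit and a filter on dim probe sets cannot change a fitted difference. No sign could turn under these, so their part of the 132 was fixed in advance. The brighter IDS probe set stayed between 0.31 and 0.53 (limma, adjusted p from 0.0699 to 0.903), and HPSE between 0.07 and 0.20. The ARSB probe set at -0.0053 was at 0.0147 with array medians subtracted, at 0.0071 after a further quantile normalization, and between -0.1209 and 0.0599 with each array left out in turn. NAGLU was at -0.0612 with array weights and between -0.0892 and 0.1184 with each array left out, and GUSB between -0.0895 and 0.0054. The median of the members was between -0.0895 (without -DOX replicate 2) and 0.0453 (without -DOX replicate 1). Members higher at an unadjusted p under 0.05 (1 with all arrays) numbered 3 with medians subtracted, 2 after quantile normalization, 3 with array weights, 2 with a variance trend, and 0 to 2 with each array left out. Over all 1259 probe sets the counts higher were 41 with all arrays, then 63, 61, 74, 43 and 22 to 76 in the same order. Members lower at that level (0 with all arrays) numbered 2 with array weights and 0 to 2 with each array left out, where all probe sets gave 57 with all arrays, 172 with array weights and 23 to 182 with each array left out. Array weights, whose estimation stopped before it converged, let 1 probe set of all pass the adjusted threshold, no member. The cause of these moves was not tested.

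With the replicate number as a replicate block, 0 probe sets passed, as without it. Same-numbered arrays' deviations correlated at -0.147, -0.0428 and -0.157, and no array correlated best with its own number, so no pairing by number was seen. Such correlations cannot show whether same-numbered arrays were handled together. The filter on dim probe sets dropped one ARSB probe set. No detection calls were used, so the background under dim probe sets is unknown.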
